A study of Mus musculus with 42 samples.

Results

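The 32 genes described here encode the enzymes that build cholesterol and long-chain fatty acids from acetyl-CoA, together with the sterol sensors that set their transcription through the SREBP (sterol regulatory element-binding protein) factors. They were taken as a list of gene symbols, chosen with earlier results of these data known, and read from tables of 47643 genes. All 32 had a row in both tables, and 30 reached a mean of at least 10 in both and were tested. The other 2 were Idi1, an isopentenyl diphosphate isomerase gene with 0 to 9 reads per library, and Fads2, the delta-6 desaturase gene, which was at 0 in every young library and at 1 read or fewer in the aged ones.

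RNA came from macrophages of C57BL/6 mice, labelled only as macrophages, with no body site, sex, genetic change or treatment named. Young mice were 2 to 3 months old and aged mice 18 to 20 months old. Cells of each age were taken at 7 zeitgeber times (ZT, hours after lights on), namely ZT0, ZT4, ZT8, ZT12, ZT16, ZT20 and ZT24, with 3 libraries per age and time and 42 in all. The labels do not say whether libraries of a group came from separate animals or pools, so p-values measure the spread between these libraries, which may in part be technical.

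SREBP2, the product of Srebf2, and SREBP1 are held in the endoplasmic reticulum by the escort protein SCAP and the INSIG anchors while sterols are plentiful. When sterols fall, SCAP carries the precursor to the Golgi, where it is cut, and the released factor enters the nucleus and raises transcription of sterol and fatty acid synthesis genes. Insig1 is itself a target, which closes the loop. Macrophages also take up cholesterol from lipoproteins and from engulfed cells, and oxysterols formed from it engage LXR, a nuclear receptor that drives cholesterol export.

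Promoter letters were read for 25 of the 32 genes from RefSeq on GRCm38.p6, as 300 bases from 250 before to 50 after each start. Motifs were searched on both strands: the sterol regulatory element TCACNCCAC, its short form TCACCCCA (which overlaps the longer one where both match), the E-box CACGTG, the CCAAT box CCAAT and the GC box GGGCGG. The long sterol element lay in the promoter of 1 of the 25 genes (Hmgcs1), against 1.44% of 27025 genes with a promoter in the table. The short form lay in 2 (Hmgcs1 and Srebf2), against 1.77% of genes. The E-box lay in 5 (Dhcr7, Hsd17b7, Insig1, Sc5d and Scap), against 8.09%. CCAAT and GC boxes, the sites of NF-Y and Sp1 with which SREBPs act together at many promoters, lay in 20 genes each, against 41.1% and 38.2% of all genes. A match is a description of these letters and not a site of binding.

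The 170 bases before the start are shown for 6 genes to which the results below turn: the factor gene and the enzyme gene that hold the short sterol element (Srebf2, Hmgcs1), the 2 sterol enzymes with the clearest fall in aged cells (Cyp51, Ebp), the 1 sterol enzyme that was higher (Sc5d), and the feedback sensor (Insig1). Each is written 5′ to 3′ on the strand of its gene, and capitals mark the matches.
Srebf2: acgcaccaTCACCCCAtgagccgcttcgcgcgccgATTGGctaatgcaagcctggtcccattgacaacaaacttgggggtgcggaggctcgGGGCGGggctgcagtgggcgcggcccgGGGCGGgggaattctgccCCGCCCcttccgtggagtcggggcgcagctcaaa
Hmgcs1: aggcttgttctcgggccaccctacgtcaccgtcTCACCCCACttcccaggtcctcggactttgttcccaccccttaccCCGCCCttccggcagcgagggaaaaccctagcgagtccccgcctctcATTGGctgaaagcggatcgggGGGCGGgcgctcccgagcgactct
Insig1: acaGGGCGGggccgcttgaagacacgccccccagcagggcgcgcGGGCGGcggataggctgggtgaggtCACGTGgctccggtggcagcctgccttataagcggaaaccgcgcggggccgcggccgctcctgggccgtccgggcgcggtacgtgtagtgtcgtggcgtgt
Cyp51: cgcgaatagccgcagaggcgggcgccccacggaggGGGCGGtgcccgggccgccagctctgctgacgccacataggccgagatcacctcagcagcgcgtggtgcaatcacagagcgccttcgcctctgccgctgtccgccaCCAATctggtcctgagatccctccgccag
Ebp: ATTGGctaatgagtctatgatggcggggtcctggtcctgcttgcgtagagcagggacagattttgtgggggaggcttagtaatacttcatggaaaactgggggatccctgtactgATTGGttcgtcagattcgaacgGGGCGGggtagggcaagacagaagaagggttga
Sc5d: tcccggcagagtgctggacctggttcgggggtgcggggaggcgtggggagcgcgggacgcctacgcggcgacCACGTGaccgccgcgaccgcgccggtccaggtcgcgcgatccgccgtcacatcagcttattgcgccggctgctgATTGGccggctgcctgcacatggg
In GRCm38.p6 these stretches lie at chr15:82147099-82147268 (plus strand), chr13:119690181-119690350 (plus strand), chr5:28071242-28071411 (plus strand), chr5:4104698-4104867 (minus strand), chrX:8193513-8193682 (minus strand) and chr9:42264301-42264470 (minus strand), in that order. In Srebf2 and Hmgcs1 the first capitals are the sterol element, at 162 and 137 bases before the start. In Insig1 and Sc5d the E-box lies 101 and 98 bases before it. Cyp51 and Ebp held CCAAT and GC boxes in this stretch and no match to the sterol element letters as searched.

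The libraries held between 7433159 and 13574542 recovered reads in young cells and between 4864402 and 15587030 in aged cells. The macrophage markers Adgre1, Csf1r, Cd68, Itgam, Lyz2, Cd14, Fcgr1 and Mertk all passed the filter on low values, and of these Cd14 was called higher (0.18) and Cd68 (−0.18) and Lyz2 (−0.25) lower in aged cells. Markers of resident peritoneal macrophages had 4 of 7 called higher and 2 lower. Markers of dividing cells summed to 739 to 1780 (median 1061) CPM (reads scaled to library size) in young and 227 to 942 (median 552) in aged cells, and 14 of 14 were called lower in aged cells. B cell markers summed to 510.4 to 977 (median 701) in young and 495 to 2212 (median 1034) in aged cells, with 8 of 9 called higher and none of the 9 at 0 throughout. T cell markers summed to 74.4 to 144 and 66.8 to 362, with 6 of 8 called higher. Mast cell markers summed to 165 to 367 and 167 to 438, with 1 of 7 called higher and 1 lower (median difference −0.14). Neutrophil markers summed to 8.80 to 47.5 and 11.1 to 72.0, with 1 of 3 called higher and 1 lower. Mesothelium and fibroblast markers summed to 0 to 2.79 CPM in young and 2.74 to 13.2 in aged cells, and Dcn, the 1 of 6 that was tested, was higher (3.35). The part of mesothelium and fibroblast RNA in the differences between ages was not tested. In bulk RNA, fewer cells of a type and less RNA per cell cannot be told apart. Each age was deposited as its own table and no label gives a batch, so any batch that went with age and age itself cannot be told apart.

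Values below are reads rescaled to 1 depth over all 42 libraries, and the 3 values of a time are given in the order of the replicate numbers. Differences are log2 of aged over young on the scale log2(value + 1), with the SE, from limma-trend with Benjamini-Hochberg adjustment over all genes tested. A gene was called at an adjusted p under 0.05. The first aged ZT8 library deviated most of all 42 from its group (median absolute deviation of 0.32 on the log2 scale) and the second had the highest B cell marker sum. Results that turn on ZT8 are therefore also given without these libraries, a choice made after the data were seen. The aged ZT8 group is then 1 library, which is assumed to vary like those of the other groups.

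Of the 30 genes 8 were called different in mean level between the ages. Scd1 and Scd2, the stearoyl-CoA desaturases that make monounsaturated fatty acids, were 1.86-fold and 1.47-fold higher in aged cells, and the sterol enzyme gene Sc5d 1.17-fold. Cyp51, Ebp, Acat2 and Hmgcs1 of the sterol arm and the fatty acid elongase gene Elovl6 were lower. The genes of the sensing machinery were not called in any comparison. Of the 30 genes 3 were called higher over the day, against 12.0% of 12086 genes tested, and 5 lower, against 11.7%. At an unadjusted p under 0.05 there were 13 of 30, against 34.0%. The median difference of the 30 genes was −0.03 and that of all genes 0.00.

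**Figure D1:**
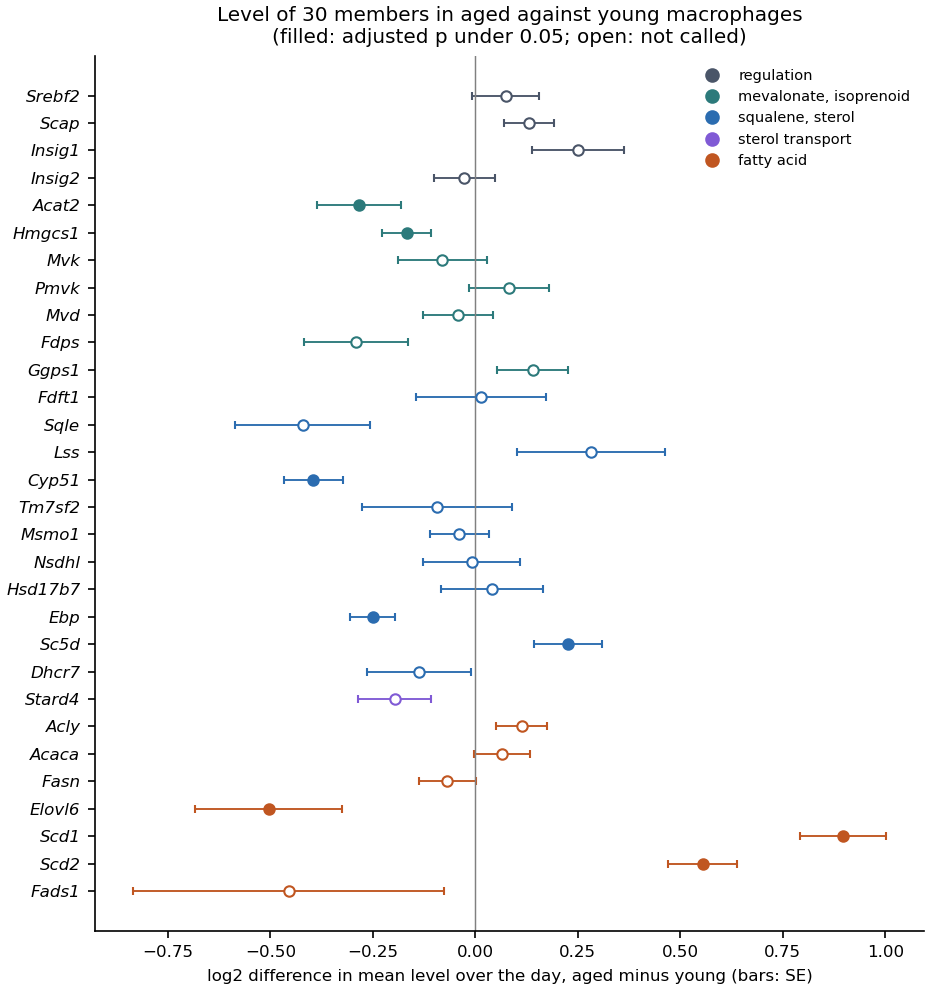
Difference in mean level over the day between aged and young macrophages for the 30 tested genes, ordered by role. Points give log2 of aged over young, bars the SE, and filled points an adjusted p under 0.05: Scd1 (0.90) and Scd2 (0.55) stand farthest to the right, and 5 filled points lie left of 0.

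Among the sensors and regulators, Srebf2, which encodes the SREBP2 precursor, had the most reads of the 4. Srebf2 stood in young cells at 1179, 1139 and 1044 at ZT0, 1379, 1042 and 1218 at ZT4, 1893, 1045 and 988 at ZT8, 1118, 1207 and 1486 at ZT12, 1202, 1069.5 and 1392 at ZT16, 896, 1044 and 1221 at ZT20 and 1123, 1436 and 1200.2 at ZT24. In aged cells Srebf2 stood at 1076, 1116 and 970.3 at ZT0, 1425, 1013 and 1406 at ZT4, 1725, 1576 and 1368 at ZT8, 906, 971 and 1621 at ZT12, 1272, 822 and 1327 at ZT16, 1821, 1056 and 1250.3 at ZT20 and 1122, 1574 and 1501 at ZT24. The ages overlapped at every time, and 1 young library at ZT8 (1893) was the highest of all 42. The difference over the day was 0.07 ± 0.08 (adjusted p = 0.571).

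Scap encodes the escort that senses cholesterol. Scap stood in young cells at 376, 327 and 296 at ZT0, 474, 335 and 300.4 at ZT4, 341, 333 and 307 at ZT8, 349, 319 and 371 at ZT12, 330.5, 334 and 342 at ZT16, 326, 346 and 348 at ZT20 and 309.6, 330.4 and 338 at ZT24. In aged cells Scap stood at 386, 336 and 345 at ZT0, 363, 342 and 283 at ZT4, 350.1, 431 and 449 at ZT8, 344, 429 and 410.0 at ZT12, 391, 291 and 438 at ZT16, 337, 396 and 371 at ZT20 and 419, 439 and 299 at ZT24. Young libraries lay within a narrow band apart from 1 at ZT4, and the aged ones stood above them at ZT8 and overlapped them at the other times. The difference was 0.13 ± 0.06 (adjusted p = 0.117). The fitted cosine of Scap had a peak-to-trough fold of 1.02 in young cells, the flattest of the 30 genes there.

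Insig1 encodes the anchor whose transcription SREBPs drive. Insig1 stood in young cells at 118, 61.5 and 96.2 at ZT0, 69.1, 116 and 65.2 at ZT4, 122, 77.8 and 76.2 at ZT8, 68.4, 47.6 and 53.3 at ZT12, 52.9, 47.3 and 59.8 at ZT16, 87.1, 85.7 and 96.8 at ZT20 and 80.4, 35.8 and 66.9 at ZT24. In aged cells Insig1 stood at 70.8, 112 and 101 at ZT0, 111, 129 and 117 at ZT4, 81.8, 91.8 and 110.0 at ZT8, 53.5, 64.2 and 85.0 at ZT12, 68.4, 50.7 and 94.7 at ZT16, 68.2, 56.8 and 85.6 at ZT20 and 117, 90.8 and 103 at ZT24. In aged cells every ZT4 library lay above every ZT12, ZT16 and ZT20 library, while the young libraries of ZT0, ZT4 and ZT8 spread from 61.5 to 122. The aged cosine had a 1.79-fold swing from trough to peak, peaking at ZT 3.7 ± 0.9 h (SE), with an adjusted p of 0.172, the lowest of the 30 genes in aged cells, and the young one a fold of 1.40 at ZT 3.0 ± 2.2 h (adjusted p = 0.548). Neither was called, and the difference in level was 0.25 ± 0.11 (adjusted p = 0.104).

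Insig2 encodes the second anchor, which is regulated apart from SREBPs. Insig2 stood in young cells at 210.3, 298 and 251 at ZT0, 178, 205 and 208 at ZT4, 245, 281 and 236 at ZT8, 324, 271 and 280.4 at ZT12, 269.9, 308 and 296 at ZT16, 301, 271 and 275 at ZT20 and 296, 343 and 227 at ZT24. In aged cells Insig2 stood at 248, 259 and 298 at ZT0, 228, 257 and 208 at ZT4, 229, 299 and 239 at ZT8, 279, 200.1 and 285 at ZT12, 231, 390.5 and 233 at ZT16, 217, 243 and 373 at ZT20 and 249, 301 and 216 at ZT24. The young ZT4 libraries, at 178 to 208, lay below all young libraries of ZT8 to ZT24, and aged libraries did not separate the times in this way. The young cosine had a 1.36-fold swing from trough to peak, peaking at ZT 16.6 ± 1.1 h (adjusted p = 0.152), and the aged one a fold of 1.15 (adjusted p = 0.86). For level the difference was −0.03 ± 0.07 (adjusted p = 0.843). Of the 4 regulators limma, edgeR and DESeq2 each called 0 for level, where limma called 12.0% of all genes higher and 11.7% lower. Scap and Insig1 were at an unadjusted p under 0.05, as were 34.0% of all genes.

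In the mevalonate and isoprenoid steps, 2 of 7 tested genes were lower in aged cells and 0 higher, against 11.7% and 12.0% of all genes. Acat2, on chromosome 17 (chr17:12942890-12960747, minus strand), encodes the cytosolic thiolase that joins 2 acetyl-CoA units. Acat2 stood in young cells at 105, 116 and 143 at ZT0, 88.1, 144 and 137 at ZT4, 156, 156 and 97.1 at ZT8, 129.6, 162 and 128 at ZT12, 106, 120.3 and 92.0 at ZT16, 113, 129 and 119 at ZT20 and 216, 189 and 104 at ZT24. In aged cells Acat2 stood at 163, 145 and 139 at ZT0, 51.0, 134 and 91.9 at ZT4, 79.4, 79.3 and 75.5 at ZT8, 113, 119 and 131 at ZT12, 118, 74.9 and 107 at ZT16, 124, 128 and 98.6 at ZT20 and 91.9, 124 and 89.4 at ZT24. At ZT8 the aged libraries lay between 75.5 and 79.4 and every young one above them, while at ZT0 the aged libraries were level with or above the young ones. The difference over the day was −0.28 ± 0.10 (adjusted p = 0.0377). That call was lost in 17 of the 42 fits that leave out 1 library, and without the first and second aged ZT8 libraries (adjusted p = 0.0585).

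Hmgcs1 (chr13:119690379-119708260, plus strand) encodes the cytosolic synthase that makes HMG-CoA, the substrate of the rate-limiting reductase. Hmgcs1 stood in young cells at 595, 575 and 606 at ZT0, 569.6, 724 and 655 at ZT4, 675, 723 and 726 at ZT8, 758, 773 and 567 at ZT12, 611, 675 and 758 at ZT16, 618, 610.2 and 603 at ZT20 and 686, 877 and 841 at ZT24. In aged cells Hmgcs1 stood at 581, 797 and 780.3 at ZT0, 724, 623 and 558 at ZT4, 531, 490.4 and 563 at ZT8, 521, 571 and 495 at ZT12, 741, 523 and 664 at ZT16, 576, 500.3 and 559 at ZT20 and 465, 647 and 843 at ZT24. The aged ZT8 libraries, at 490.4 to 563, lay below the young ones, at 675 to 726. The aged ZT20 libraries, at 500.3 to 576, also lay below the young ones, at 603 to 618, and at the other times the ages overlapped. The difference was −0.17 ± 0.06 (adjusted p = 0.0374). It was lost in 14 of 42 fits that leave out 1 library, and without the first and second aged ZT8 libraries the adjusted p was 0.0892.

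The other 5 genes of these steps were not called. Mvd, the decarboxylase that makes isopentenyl diphosphate, ranged from 348 to 725 in young and from 276 to 828 in aged cells, with a difference of −0.04 ± 0.09. Its young cosine had a 1.40-fold swing from trough to peak, peaking at ZT 12.6 ± 1.1 h and missed the threshold (adjusted p = 0.0510), and edgeR and DESeq2 called it. Mvk and Pmvk, the kinases of mevalonate and phosphomevalonate, differed by −0.08 ± 0.11 and 0.08 ± 0.10. Fdps, the farnesyl diphosphate synthase gene, was at 57.1 to 134 in young and 39.0 to 134 in aged cells (−0.29 ± 0.13, adjusted p = 0.0928). Ggps1, which makes the geranylgeranyl diphosphate used to lipidate small GTPases, differed by 0.14 ± 0.09.

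In the squalene and sterol steps, 2 of 11 genes were lower in aged cells and 1 higher, against 11.7% and 12.0% of all genes. Cyp51 (chr5:4081145-4104746, minus strand) encodes lanosterol 14-alpha-demethylase. Cyp51 stood in young cells at 323, 412 and 373 at ZT0, 263, 363 and 343 at ZT4, 325, 362 and 331 at ZT8, 305, 361 and 379 at ZT12, 342, 480.4 and 459 at ZT16, 299.9, 337 and 321 at ZT20 and 398, 588 and 347 at ZT24. In aged cells Cyp51 stood at 302, 374 and 305 at ZT0, 289.7, 227 and 319 at ZT4, 202, 282 and 251 at ZT8, 166, 199 and 208 at ZT12, 345, 278 and 269 at ZT16, 272, 284 and 246 at ZT20 and 261, 378 and 480.3 at ZT24. At ZT8, ZT12 and ZT20 every aged library lay below every young one, and the 2 lowest values of all 42 were of aged ZT12. The difference over the day was −0.39 ± 0.07, or 1.31-fold lower in aged cells (adjusted p = 5.79e-05), and stayed called in all 42 fits that leave out 1 library. At ZT12 alone it was −0.87 ± 0.19 (adjusted p = 0.00710), against 2.08% of genes called at that time.

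Ebp (chrX:8185329-8193512, minus strand) encodes the isomerase that shifts the sterol double bond from position delta-8 to delta-7. Ebp stood in young cells at 950.0, 1057 and 915 at ZT0, 903, 1073 and 1600.0 at ZT4, 1017, 1072 and 942 at ZT8, 959, 1118 and 1094 at ZT12, 1034, 1233 and 1031 at ZT16, 967, 1111 and 841 at ZT20 and 1082, 1262 and 1132 at ZT24. In aged cells Ebp stood at 808, 1001 and 1003 at ZT0, 827, 807 and 709.9 at ZT4, 891, 791 and 691 at ZT8, 1003, 800.3 and 899 at ZT12, 1047, 1022 and 1039 at ZT16, 802, 1057 and 881 at ZT20 and 882, 855.5 and 969 at ZT24. At ZT4, ZT8 and ZT24 the aged libraries lay below the young ones, and at ZT16 the aged libraries were within or next to the young range. The difference was −0.25 ± 0.05, or 1.19-fold lower (adjusted p = 5.76e-04), and stayed called in all 42 fits that leave out 1 library. At ZT4 it was −0.57 ± 0.15 (adjusted p = 0.0338), where 1.35% of genes were called. The ZT4 call was lost in 5 of the 6 fits that leave out 1 ZT4 library. The difference was smallest, at −0.34 (adjusted p = 0.355), without the third young library at 1600.0.

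Sc5d (chr9:42251595-42264256, minus strand) encodes the desaturase that makes 7-dehydrocholesterol, and moved the other way. Sc5d stood in young cells at 121, 162 and 149 at ZT0, 207, 226 and 300.4 at ZT4, 219, 164 and 162 at ZT8, 155, 167 and 176 at ZT12, 144, 172 and 153 at ZT16, 148, 190.4 and 174 at ZT20 and 186, 208 and 160.5 at ZT24. In aged cells Sc5d stood at 226, 336 and 225 at ZT0, 287, 199 and 147 at ZT4, 174, 228 and 212 at ZT8, 167, 185 and 170.01 at ZT12, 228, 176 and 259.6 at ZT16, 188, 204 and 129.5 at ZT20 and 281, 178 and 214 at ZT24. The ages stood apart at ZT0, with the aged libraries from 225 to 336 and the young ones from 121 to 162, and at ZT16, and overlapped at the other times. The difference was 0.23 ± 0.08 (adjusted p = 0.0413). It was lost in 20 of 42 fits that leave out 1 library.

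**Figure D2:**
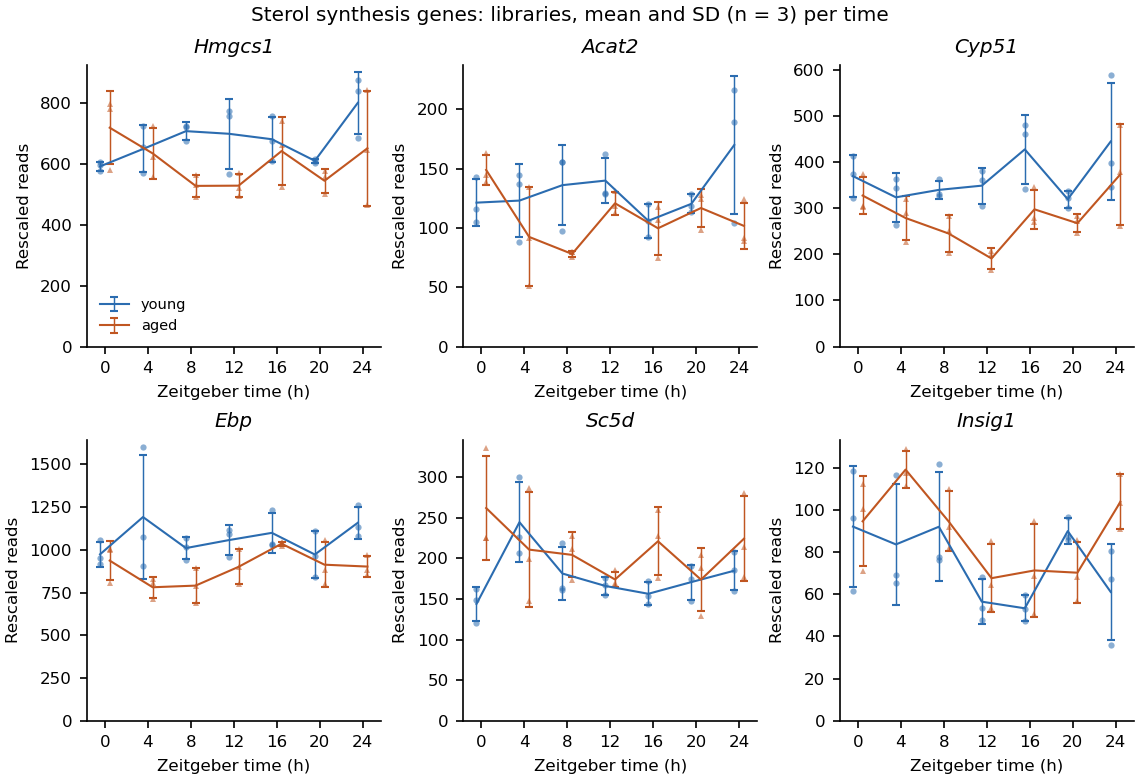
Values of 6 genes of the sterol arm by zeitgeber time (h), in reads rescaled to 1 depth. Circles (young) and triangles (aged) are libraries, and lines with bars are means ± SD of 3: the aged line of Cyp51 lies lowest at ZT12, between 166 and 208, and that of Sc5d above the young line at ZT0.

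The remaining 8 genes of the sterol steps were not called. Sqle, the squalene epoxidase that commits squalene to sterols, was at 37.2 to 139 in young and 14.2 to 118 in aged cells (−0.42 ± 0.16, adjusted p = 0.0577). Lss, which closes the ring to lanosterol, differed by 0.28 ± 0.18, and Fdft1, which makes squalene, by 0.01 ± 0.16. The demethylation and reduction genes Msmo1, Nsdhl, Hsd17b7, Tm7sf2 and Dhcr7 had differences of −0.04 ± 0.07, −0.01 ± 0.12, 0.04 ± 0.12, −0.09 ± 0.18 and −0.14 ± 0.13. Stard4, which carries sterols between membranes, differed by −0.20 ± 0.09 (adjusted p = 0.106). With Stard4, 19 genes of the sterol arm were tested, and 13 had a difference below 0, with a median of −0.08. Over all genes 5945 of 12086 were below 0, with a median of 0.00. Under other scalings 12 (upper quartile) and 14 (total) of 19 were below 0. Without the first and second aged ZT8 libraries the median of the 19 was −0.03. With the B, T and mast cell marker scores in the fit, 11 of 19 were below 0, with a median of −0.05. With the score of dividing cell markers in the fit, 8 of 19 were below 0, with a median of 0.04. The B cell, T cell and dividing cell scores themselves move with age, so these fits cannot separate them from age.

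Among single times, the count of sterol genes below 0 was highest at ZT12, with 15 of 19 (median −0.23), against 49.7% of all genes. At ZT0, by contrast, 7 of 19 were below 0 (median 0.16). At ZT8 and at ZT4 12 of 19 were below 0, with medians of −0.24 and −0.20. These counts describe the genes of 1 list in the same libraries, which are not independent of each other.

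**Figure D3:**
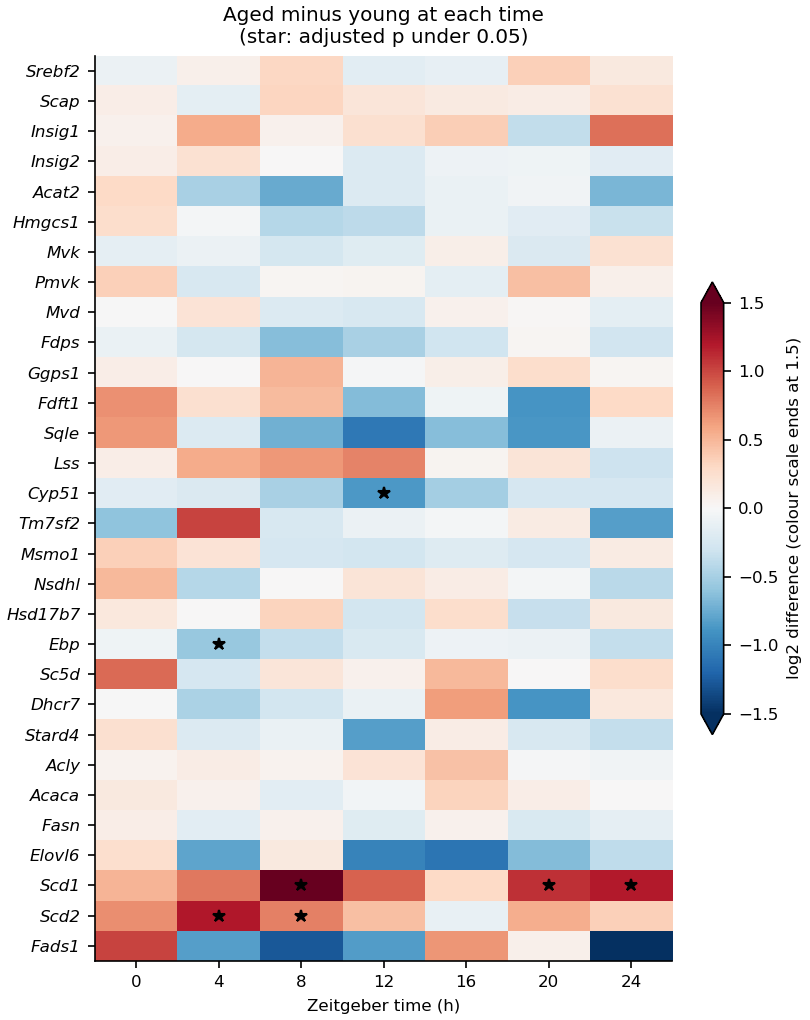
Difference between aged and young macrophages at each zeitgeber time (h) for the 30 tested genes, as colour (log2, scale ending at 1.5 in both directions). Stars mark an adjusted p under 0.05: Ebp and Scd2 at ZT4, Scd1 and Scd2 at ZT8, Cyp51 at ZT12, and Scd1 at ZT20 and ZT24.

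In the fatty acid arm, 2 of 7 tested genes were higher in aged cells and 1 lower, against 12.0% and 11.7% of all genes. Scd1 (chr19:44394455-44407879, minus strand) had the largest difference of the 30 genes. Scd1 stood in young cells at 544, 418 and 538 at ZT0, 679, 392 and 614 at ZT4, 775, 521 and 492 at ZT8, 417, 583 and 735 at ZT12, 471, 659.6 and 698 at ZT16, 448, 461 and 687 at ZT20 and 404, 551 and 409.6 at ZT24. In aged cells Scd1 stood at 898, 419 and 950.2 at ZT0, 803, 859 and 1238 at ZT4, 1416, 1969 and 1589 at ZT8, 976, 935 and 1248 at ZT12, 589, 1119.6 and 611 at ZT16, 1431, 1167 and 838 at ZT20 and 1337, 1119 and 733 at ZT24. The lowest aged ZT8 library, at 1416, lay above the highest young library of any time, at 775, while at ZT0 and ZT16 the ages overlapped. The level was 548 ± 120.2 in young and 1059 ± 367 in aged cells (mean ± SD over the day, n = 21), a difference of 0.90 ± 0.10 (adjusted p = 1.54e-08).

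At ZT8 the difference of Scd1 was 1.49 ± 0.28 (adjusted p = 0.00129), with 4.01% of genes called. The second aged ZT8 library, the highest for Scd1 at 1969, also had the highest B cell marker sum, 2212 CPM. With the third aged ZT8 library alone the ZT8 difference was 1.44, of about the same size, and not called (adjusted p = 0.163) with 1 sample in that group, while the difference over the day remained called. At ZT20 it was 1.10 ± 0.28 (adjusted p = 0.0279, 1.65% of genes called) and at ZT24 1.19 ± 0.28 (adjusted p = 0.0145, 2.09%). Each of these calls was lost in 4 of the 6 fits that leave out 1 library of its own time, with adjusted p up to 0.231 at ZT20 and 0.156 at ZT24.

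Scd2 (chr19:44293674-44306864, plus strand) lies beside Scd1 and encodes a close relative, and how reads shared by the 2 were counted is not given in the sources used here. Scd2 stood in young cells at 259, 395 and 429 at ZT0, 309, 351 and 286 at ZT4, 526, 504 and 316 at ZT8, 541, 526 and 547 at ZT12, 647, 629.8 and 873 at ZT16, 519, 514 and 589 at ZT20 and 450.3, 866 and 599.6 at ZT24. In aged cells Scd2 stood at 721, 397 and 659.7 at ZT0, 736, 582 and 878 at ZT4, 762, 816 and 646 at ZT8, 611, 763 and 863 at ZT12, 548, 799 and 636 at ZT16, 1026, 760.2 and 619 at ZT20 and 698, 851 and 821 at ZT24. Young libraries lay between 259 and 429 at ZT0 and ZT4, between 629.8 and 873 at ZT16 and between 450.3 and 866 at ZT24. The aged ones were between 397 and 1026 over all times. At ZT4, ZT8, ZT12 and ZT20 every aged library lay above every young one, and at ZT0, ZT16 and ZT24 the ages overlapped. The difference over the day was 0.55 ± 0.08 (adjusted p = 2.81e-06), at ZT4 1.20 ± 0.22 (adjusted p = 0.00264) and at ZT8 0.75 ± 0.22 (adjusted p = 0.0465). The ZT8 call was lost in 18 of 42 fits that leave out 1 library, 4 of them among the 6 that leave out a ZT8 library, and with the third aged ZT8 library alone (0.56, adjusted p = 0.842).

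Elovl6 (chr3:129532355-129638495, plus strand) encodes the elongase that turns C16 into C18 fatty acids. Elovl6 stood in young cells at 22.7, 20.2 and 39.0 at ZT0, 48.0, 53.1 and 42.8 at ZT4, 29.3, 18.5 and 41.9 at ZT8, 53.1, 40.7 and 45.6 at ZT12, 37.5, 37.3 and 29.9 at ZT16, 34.4, 59.7 and 50.6 at ZT20 and 46.2, 29.5 and 66.9 at ZT24. In aged cells Elovl6 stood at 29.2, 33.8 and 31.1 at ZT0, 49.5, 23.4 and 17.2 at ZT4, 32.4, 27.7 and 34.4 at ZT8, 36.6, 12.4 and 25.0021 at ZT12, 13.9, 28.8 and 9.47 at ZT16, 15.3, 28.4 and 59.4 at ZT20 and 17.5, 54.7 and 41.9997 at ZT24. These are few reads, and the ages overlapped at ZT0, ZT4, ZT8, ZT20 and ZT24. The difference was −0.50 ± 0.18 (adjusted p = 0.0360), which was lost in 10 of 42 fits that leave out 1 library, in edgeR (adjusted p = 0.0689) and without the first and second aged ZT8 libraries (adjusted p = 0.0755).

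Acly, the ATP citrate lyase gene that supplies acetyl-CoA from citrate, had the highest read level of the 30 genes. Acly stood in young cells at 4674, 4949.6 and 5346 at ZT0, 4617, 5248 and 3972 at ZT4, 3585, 4151 and 3845 at ZT8, 4465, 4219.6 and 3722 at ZT12, 5083, 4616 and 4479.7 at ZT16, 5009, 4429 and 4719.9 at ZT20 and 5204, 5049 and 4809 at ZT24. In aged cells Acly stood at 4675, 6025 and 4945 at ZT0, 5086, 5382 and 4383 at ZT4, 4841, 2934 and 4521 at ZT8, 4309, 5133 and 4824 at ZT12, 5226, 5174 and 9784 at ZT16, 4245, 4314 and 5495 at ZT20 and 4622, 4441 and 5473 at ZT24. The 3 lowest young libraries were of ZT8 and ZT12, and the third aged ZT16 library stood at 9784, with the next highest aged one at 6025. The level difference was 0.11 ± 0.06 (adjusted p = 0.210).

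Acaca encodes acetyl-CoA carboxylase, which makes malonyl-CoA. Acaca stood in young cells at 743, 886 and 689 at ZT0, 735, 607 and 622 at ZT4, 550.4, 763 and 541 at ZT8, 578, 665 and 545 at ZT12, 640.0, 486 and 543 at ZT16, 650.4, 703 and 760.4 at ZT20 and 862, 685 and 829 at ZT24. In aged cells Acaca stood at 785, 848 and 923 at ZT0, 800.1, 735 and 544 at ZT4, 605, 487 and 562 at ZT8, 711, 658 and 408 at ZT12, 517, 767 and 849 at ZT16, 729, 701 and 833 at ZT20 and 931, 694 and 766 at ZT24. The 2 highest libraries of each age were of ZT0 and ZT24. The level difference was 0.06 ± 0.07 (adjusted p = 0.553). Fasn, the fatty acid synthase gene, was at 322 to 744 in young and 363 to 797 in aged cells, with a difference of −0.07 ± 0.07. Fads1, the delta-5 desaturase gene of polyunsaturated fatty acids, was at 0 to 46.6 in young and 0 to 46.0 in aged cells, too few reads to place a difference (−0.46 ± 0.38, adjusted p = 0.429).

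At ZT0 and ZT16 limma called 0 of the 30 genes, where 0.794% and 1.06% of genes were called. At an unadjusted p under 0.05 there were 2 (Sc5d and Scd2) at ZT0 and 4 (Cyp51, Sc5d, Acly and Elovl6) at ZT16, against 10.6% and 10.7% of genes. EdgeR called 0 at both times, and DESeq2 called Sc5d at ZT0 and 0 at ZT16.

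**Figure D4:**
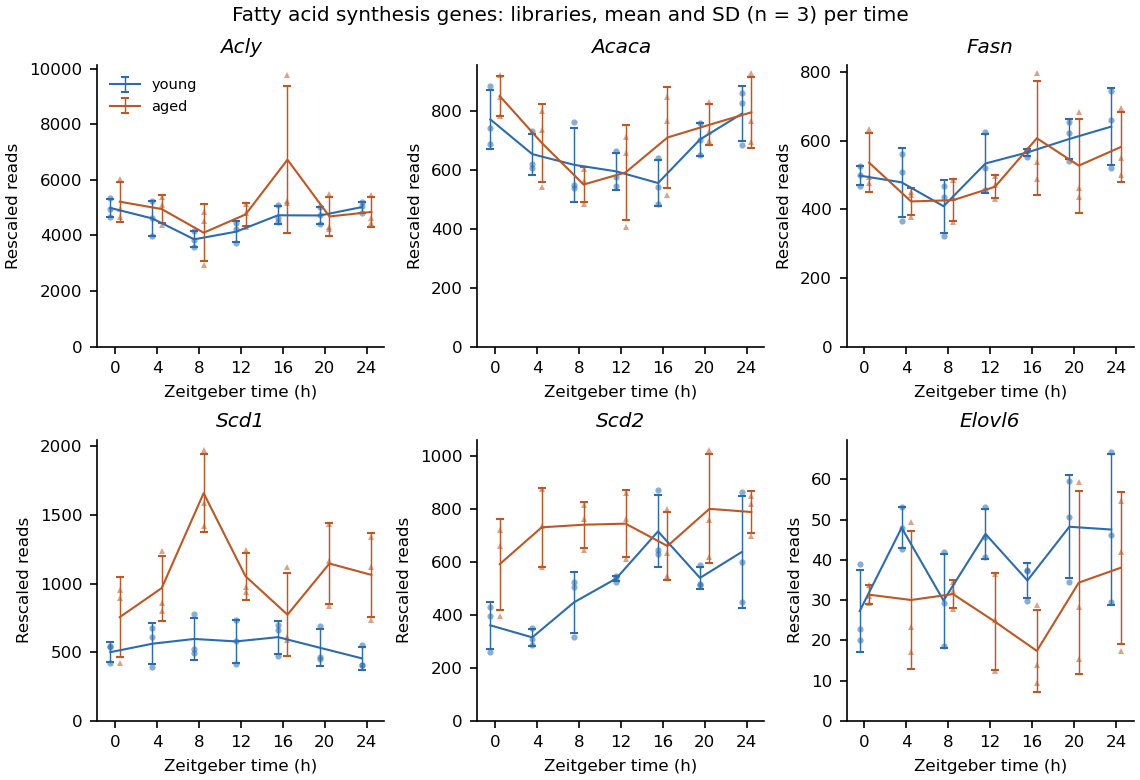
Values of 6 genes of the fatty acid arm by zeitgeber time (h), in reads rescaled to 1 depth. Circles (young) and triangles (aged) are libraries, and lines with bars are means ± SD of 3: Scd1 separates the ages most at ZT8, and 1 aged ZT16 library of Acly stands at 9784. Young Scd2 rises from 259 to 429 at ZT0 to 629.8 to 873 at ZT16, and its ZT24 level lies above ZT0 by 0.80 (log2).

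Rhythm over the day was tested in each age with a cosine of 24 h. In young macrophages the 3 called genes all belonged to fatty acid synthesis, with 3 of 30 called against 3.62% of 12113 genes. Scd2 had a peak-to-trough fold of 1.89 with a peak at ZT 16.5 ± 0.8 h (SE, adjusted p = 0.0156). Young Scd2 also stood higher at ZT24 than at ZT0, the same clock hour, by 0.80 ± 0.20 (log2), which was not called. Acly had a 1.27-fold swing from trough to peak, peaking at ZT 21.7 ± 0.9 h (adjusted p = 0.0252), and Acaca 1.36 at ZT 0.2 ± 1.0 h (adjusted p = 0.0341). Fasn had a 1.43-fold swing from trough to peak, peaking at ZT 19.4 ± 0.9 h and missed the threshold (adjusted p = 0.0660). At an unadjusted p under 0.05 there were 6 of 30 (Insig2, Mvd, Acly, Acaca, Fasn and Scd2), against 17.2% of all genes.

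The sterol arm had 0 of 19 genes called rhythmic in young cells by limma, against 3.62% of all genes. Mvd alone was at an unadjusted p under 0.05, against 17.2% of all genes, and edgeR and DESeq2 called Mvd. The median fold of the fitted cosines was 1.26 over the 30 genes and 1.21 over all genes. The rhythm of Scd2 was lost without the third young ZT16 library, which was the highest young one at 873. That of Acly was lost in 3 and that of Acaca in 9 of 21 fits that leave out 1 library, and both were lost when either the ZT24 or the ZT0 libraries were left out.

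In aged macrophages limma called 0 of the 30 genes rhythmic, against 0.308% of 12016 genes, and edgeR and DESeq2 called 0 of them too. At an unadjusted p under 0.05 there were 8 of 30 (Insig1, Fdft1, Lss, Cyp51, Msmo1, Ebp, Acaca and Fasn), against 9.01%. Among these Acaca had a 1.49-fold swing from trough to peak, peaking at ZT 22.1 ± 1.0 h and Fasn 1.39 at ZT 19.3 ± 1.1 h. Cyp51 had a 1.55-fold swing from trough to peak, peaking at ZT 23.2 ± 1.1 h, and Insig1, Msmo1, Fdft1 and Lss peaked between ZT 3.3 and ZT 7.0. Ebp peaked at ZT 17.9 ± 1.0 h, with a fold of 1.28. Scd2 had an aged fold of 1.04.

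The test of the difference in rhythm between ages called 0 of 12086 genes (0%) and 0 of the 30, and 0 of the 30 by edgeR and DESeq2 as well. So a call in young cells alone, as for Scd2, Acly and Acaca, was not shown to differ from aged cells. At an unadjusted p under 0.05 there were 5 of 30 (Scd2 at 0.0104, Msmo1 at 0.0302, Cyp51 at 0.0403, Ebp at 0.0453 and Sqle at 0.0478), against 4.09% of genes, each with an adjusted p of 0.999.

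ZT24 and ZT0 are the same clock hour a day apart, and served to show how far harvests of 1 phase differed. Limma, edgeR and DESeq2 called 0 of the 30 genes in either age, as did limma over all genes (0% in both). At an unadjusted p under 0.05 there were 5 of 30 in young cells, against 4.58% of genes, and 1 in aged cells, against 3.50%. In young cells ZT24 exceeded ZT0 by 0.80 ± 0.20 (log2) for Scd2, 0.43 ± 0.13 for Hmgcs1, 0.44 ± 0.15 for Mvd, 0.35 ± 0.16 for Fasn and 2.77 ± 0.73 for Fads1. Scd2 of aged cells was higher at ZT24 by 0.45.

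The level differences were refitted with marker scores as covariates, since most B cell, T cell and dividing cell markers differed between the ages. Mast cell markers, which share a fit with the B and T cell scores, had 1 of 7 called higher and 1 lower. With B, T and mast cell scores, Scd1 stayed called at 0.41 ± 0.11 (adjusted p = 0.00901) and Cyp51 at −0.49 ± 0.11 (adjusted p = 0.00166). Scd2 was then at 0.24 (adjusted p = 0.152) and Ebp at −0.16 (adjusted p = 0.200), and Acly became called at 0.31 (adjusted p = 0.0104). With the score of dividing cell markers Scd1 (0.64, adjusted p = 0.0117) and Scd2 (0.60, adjusted p = 0.00499) stayed called, while Cyp51 was at −0.13 (adjusted p = 0.593), Ebp at −0.28 (adjusted p = 0.0678) and Hmgcs1 at 0.08 (adjusted p = 0.702). Over all genes the calls fell from 1446 higher and 1417 lower to 704 and 765 with the first scores. With the dividing cell score they fell to 347 and 267. The B cell, T cell and dividing cell scores move with age themselves, so neither fit can separate the scores from age. Scd1 was the 1 gene of the 8 called under all 3 fits.

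**Figure D5:**
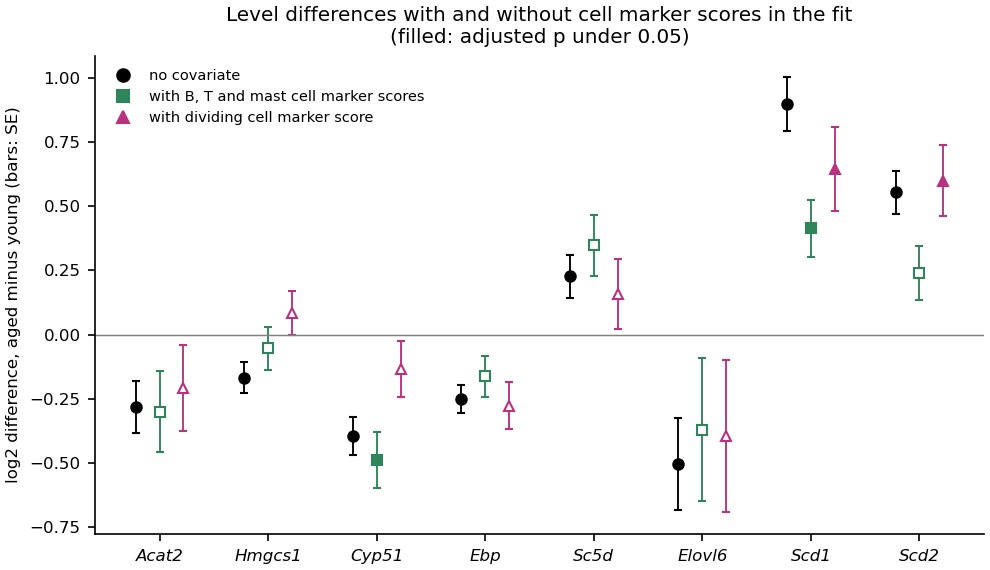
Difference in level between aged and young macrophages for the 8 called genes, as log2 with the SE, without covariates and with either set of marker scores in the fit. Filled symbols mark an adjusted p under 0.05: Scd1 is filled in all 3 fits, Cyp51 with the B, T and mast cell scores, and Scd2 with the dividing cell score.

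Of 25 other genes of SREBP regulation and its targets, 23 were tested, and 2 were higher and 3 lower in aged cells, against 12.0% and 11.7% of all genes. Me1, the malic enzyme that makes NADPH for fatty acid synthesis, was at 8.04 to 67.1 (median 29.4) in young and 24.9 to 1285 (median 195) in aged cells. The aged library at 1285 was the one with the highest Acly value. The difference was 2.63 ± 0.26 (adjusted p = 3.85e-10). Ube2g2, a ubiquitin-conjugating enzyme that acts in sterol-driven degradation, differed by 0.16 ± 0.06.

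Acsl3, an acyl-CoA synthetase gene, was at 106 to 205 in young and 41.6 to 124 in aged cells, a difference of −0.90 ± 0.09 (adjusted p = 1.20e-09). Tmem97, the sigma-2 receptor gene, differed by −0.31 ± 0.11 (adjusted p = 0.0276). In young cells 2 of 23 were rhythmic, against 3.62% of all genes, namely the sterol-responsive ligase gene Rnf145 (fold 1.36, peak at ZT 18.5) and the elongase gene Elovl5 (1.37, ZT 15.5). The median level difference of the 23 was −0.03.

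Of 20 genes of LXR signalling and sterol handling, 19 were tested, with 6 higher and 6 lower in aged cells. The shares over all genes were 12.0% higher and 11.7% lower. Higher were Nr1h3, which encodes LXR-alpha, the cholesterol exporter genes Abca1 and Abcg1, Mylip, Lpcat3 and the lysosomal exporter gene Npc1. Npc1 was close to the threshold (0.15 ± 0.05, adjusted p = 0.0481), and edgeR did not call it. Abcg1 was at 316 to 905 in young and 334 to 1263 in aged cells (0.38 ± 0.08, adjusted p = 2.36e-04), and Abca1 differed by 0.32 ± 0.07 (adjusted p = 3.59e-04). Lower were Lpl, Pltp, Lipa, Cd36, Cyp27a1 and Arl4c. Known LXR targets stood on both sides, with Abca1, Abcg1, Mylip and Lpcat3 higher and Lpl, Pltp and Arl4c lower. The other 7 of the 19 genes, among them Apoe (0.03) and Smpdl3a (−0.05), were not called. Lpl, the lipoprotein lipase gene, was at 3519 to 18174 in young and 1103 to 6398 in aged cells (−1.43 ± 0.11, adjusted p = 1.55e-13), and Pltp, a phospholipid transfer protein gene, differed by −0.36 ± 0.07.

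In young cells 4 of the 19 were rhythmic, against 3.62% of all genes. Lpl peaked at ZT 4.5 and Cyp27a1, a sterol hydroxylase gene, at ZT 7.9. Abcg1 peaked at ZT 16.9 and Mylip, which marks the lipoprotein receptor for degradation, at ZT 19.4. The median level difference of the 19 was 0.01.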

How the data were processed

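Macrophage RNA was made into 3′ end libraries, per the labels' protocols with Lexogen's QuantSeq. The submitters' processing notes name STAR, DESeq2 and mm10, and how reads shared by genes were counted is not given in the sources used. For each age the authors deposited 1 table of a normalized signal per gene. Within a library all its values are whole multiples of 1 step, and dividing by it returned whole reads in 100.0% of cases (tolerance 0.001), with size factors of 0.769 to 1.43 in young and 0.592 to 1.84 in aged cells. The labels name no molecular identifiers, so reads may not be independent molecules. Within groups, the 42 library pairs each differed beyond sampling noise, so none was treated as a copy. Nothing in the labels says that libraries of a group came from separate mice, and p-values measure the spread between libraries.

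Rhythm was tested per table with limma-trend (limma 3.58.1, R 4.3.3) on log2(value + 1), over genes with a mean of at least 10, by the moderated F-test of a 24 h cosine and sine. Between ages, recovered reads of the 42 libraries were put on 1 scale by the median of ratios. Level was the mean of 7 aged minus 7 young groups in a fit with 14 group means, and the difference in rhythm was the interaction of age with both terms. Adjusted p is Benjamini-Hochberg over all genes tested. Marker scores were mean log2 values of the listed markers. Positions are of GENCODE M21 on GRCm38. Alternatives were edgeR 4.0.16 and DESeq2 1.42.0 on recovered reads, a pseudocount of 5, no filter, other scalings, array weights, a replicate block, 7 time levels, the covariates, and leaving out times or each library. Leaving out the first and second aged ZT8 libraries was chosen after seeing the data. The scripted tests were tested on simulated data.

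The genes, lists, roles and tests were chosen with earlier results of these data known. Genes given library by library are those called in rhythm or level, the 4 regulators and the 4 of highest mean (Acly, Srebf2, Ebp and Scd1). From the other 2 lists the rule took up to 4 genes of lowest p in level and up to 4 in young rhythm, and further names there were chosen after their values were seen. Some genes of those lists are counted and not reported by name here.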

Additional observations from a re-analysis of the deposited data

How the results depend on the processing

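The 3 young rhythm calls became 0 without a filter on low values, 1 with upper quartile scaling, 1 without the ZT0 libraries and 5 in DESeq2, and 1 to 4 when each library was left out. The 5 genes lower in aged cells became 2 without a filter, 3 with upper quartile scaling, 1 with the B, T and mast cell scores, 0 with the dividing cell score, 2 without the first and second aged ZT8 libraries, and 2 to 7 when each library was left out. The 3 higher genes were 2 to 4 in those fits. Genes called at a single time went from 4 to 7 in DESeq2, and were 3 to 6 with each library left out. The counts of 0 for aged rhythm, rhythm difference and ZT24 against ZT0 were 0 to 0 in every alternative run. Over all genes young rhythm calls went from 438 to 236 without a filter, 262 without the ZT0 libraries and 737 in DESeq2, aged ones from 37 to 91 in DESeq2, and differences in rhythm from 0 to 7 with a pseudocount of 5 and 7 in DESeq2. The causes were not tested, and fits that leave out libraries also have fewer samples.

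The level difference of some genes changed sign, all but Hmgcs1 not called in the main test. With the B, T and mast cell scores Srebf2 was at −0.0068, Mvd at 0.13, Msmo1 at 0.039 and Fasn at 0.029. With the dividing cell score Hmgcs1 was at 0.083, Mvk at 0.043, Ggps1 at −0.089, Fdft1 at −0.026, Sqle at 0.023, Tm7sf2 at 0.075, Msmo1 at 0.23, Nsdhl at 0.053, Stard4 at 0.15, Acaca at −0.013 and Fads1 at 0.50, and 8 of 19 sterol genes were below 0. Fdft1 was at −0.0058 when scaled to the total, −0.033 without the ZT24 libraries, −0.010 in edgeR and −0.0072 in DESeq2. Without the ZT24 libraries Tm7sf2 was at 0.029 and Nsdhl at 0.056. Nsdhl was at 0.0053 with upper quartile scaling, 0.0040 with array weights, 0.025 in edgeR, 0.028 in DESeq2 and 0.00054 without the first and second aged ZT8 libraries. With each library left out, Fdft1 ran from −0.044 to 0.066, Nsdhl from −0.060 to 0.063, Mvd from −0.082 to 0.0098 and Hsd17b7 from −0.011 to 0.10.

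The groups share replicate numbers. Libraries with the same number mostly did not deviate together (median correlation −0.0061 over 63 pairs in young and −0.0098 in aged cells). A correlation above 0.1 was seen in 1 of the young and 7 of the aged pairs. The labels do not say whether the numbers pair libraries, and these correlations cannot settle it. With the replicate block the young rhythm had 3 of the 30 genes and 387 genes in all, aged rhythm and ZT24 against ZT0 0 of the 30, and level 3 higher and 5 lower, which were the same 8 genes. Genes called at a single time went from 4 to 5. Depth limits Fads1, Lss, Tm7sf2, Fdft1 and Elovl6, all with means under 50 reads.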
